A study of Mus musculus with 6 samples.

Results

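The report concerns miR-103, miR-107, miR-33 and miR-378, microRNAs (miRNAs) transcribed from within genes of lipid and energy metabolism. They were taken by name from the panel of a quantitative PCR (qPCR) array and are 4 of its 380 named miRNAs. All 4 had a threshold cycle (Ct, the cycle at which fluorescence crosses a set level) in every sample, and all 4 were among the 115 miRNAs tested. RNA came from exosomes, small vesicles released by cells, that were isolated from mouse serum. The vehicle group held 3 samples and the OCExoInhib group 3 samples, all taken 2 weeks after ACLT, presumably surgery that cuts the anterior cruciate ligament and destabilises the knee. The labels do not expand OCExoInhib. The study is known for an inhibitor of exosome release aimed at osteoclasts, the cells that resorb bone. The labels give no strain, sex, age or dose, and no unoperated mice are among the samples. The design text speaks of pooling exosomal miRNA in equal parts, from 3 mice a group. It leaves unclear whether the samples of a group are single mice or repeat runs of a pool. The p-values therefore cover the spread among these samples alone, and that spread may be technical.

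A miRNA inside a host gene is usually made from the same primary transcript and then cut out, loaded into Argonaute and guided to messenger RNAs mainly by its seed, the bases near its 5′ end. miR-103 and miR-107 lie in introns of pantothenate kinase genes, whose enzymes start coenzyme A synthesis, and are known to dampen insulin sensitivity. miR-33 lies in an intron of Srebf2, which encodes the main activator of cholesterol synthesis genes, and represses the cholesterol exporter Abca1. miR-378 lies in an intron of Ppargc1b, which encodes a coactivator of mitochondrial genes, and is known from fat, liver and muscle. Serum exosomes mix vesicles from many tissues, so fewer vesicles of one source and less miRNA per vesicle cannot be told apart here.

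The mature sequences printed next, with seed bases 2 to 8 in capitals, show how close miR-103 and miR-107 are and how they relate to the miR-15 and miR-16 miRNAs described further on. Letters are those of the deposited panel, and each sequence matched a RefSeq mature miRNA exactly.
miR-103: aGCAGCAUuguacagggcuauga
miR-107: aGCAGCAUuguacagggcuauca
miR-15a: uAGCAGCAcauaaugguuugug
miR-16: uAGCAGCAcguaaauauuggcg
miR-33: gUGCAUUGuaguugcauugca
miR-103 and miR-107 were identical at 22 of 23 bases and differed by G22C, counted from the 5′ end with the base of miR-103 first. The differing base lies outside the seed, and no other of the 380 panel sequences had their seed. The run AGCAGC within the first 9 bases was held by 9 of the 380 panel sequences (2.37%). These were miR-103, miR-107, miR-15a, miR-15b, miR-16, miR-195, miR-322, miR-497 and miR-503. No other panel miRNA had the seed of miR-33 or that of miR-378 at bases 2 to 8. Whether the assays of miR-103 and miR-107 tell these sequences apart was not tested.

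The mature miR-103 sequence is encoded at 2 loci and that of miR-107 at 1, as the RefSeq hairpins on GRCm38.p6 show with the mature part in capitals.
Mir103-1: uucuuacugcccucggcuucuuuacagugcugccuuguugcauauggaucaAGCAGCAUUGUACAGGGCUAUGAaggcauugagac
Mir103-2: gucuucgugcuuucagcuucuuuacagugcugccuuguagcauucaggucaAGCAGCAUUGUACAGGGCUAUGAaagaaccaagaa
Mir107: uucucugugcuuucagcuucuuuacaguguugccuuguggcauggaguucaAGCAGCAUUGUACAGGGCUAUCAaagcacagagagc
Mir103-1 lies at chr11:35782396-35782481 on the plus strand, inside the span of Pank3 at chr11:35769495-35791285. Mir103-2 lies at chr2:131288052-131288137 on the plus strand, inside Pank2 at chr2:131262008-131299188. Mir107 lies at chr19:34820687-34820773 on the minus strand, inside Pank1 at chr19:34806935-34883423. Mir33 lies at chr15:82198122-82198190 on the plus strand, inside Srebf2 at chr15:82147269-82205379. Each of these hairpins is on the strand of its host gene. The assay of miR-103 thus reads the product of both Mir103 loci together.

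Relative to the normalizer wells, serum exosomes of the OCExoInhib group held less miR-107 and less miR-378 than those of the vehicle group. Neither miR-103, which shares its seed with miR-107, nor miR-33 passed the test. The fall was 303.6-fold for miR-107 and 36.2-fold for miR-378. By limma with Benjamini-Hochberg adjustment at 0.05, 2 of the 4 were lower and 0 were higher, where 20 of all 115 tested miRNAs were lower (17.4%), 7 were higher (6.09%) and 27 passed in either direction (23.5%). The 4 were chosen with results of these data known, so their count says nothing about metabolic miRNAs in general. The arithmetic of the OCExoInhib values of the miRNAs that fell, described further on, is unusual. It bears on the Ct values, levels and folds of miR-107 and miR-378 as well as on their p-values, and whether these Ct values are direct instrument readings was not tested.

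The log2 level of miR-107, the negative of the deposited ΔCt against wells P21 to P23, was 5.702, 5.271 and 6.840 in vehicle samples 1, 2 and 3. In OCExoInhib samples 1, 2 and 3 it was −2.011, −6.368 and 1.454. Every OCExoInhib sample was below every vehicle sample, with a gap of 3.82 between the nearest 2, and sample 2 lay far below the rest of its group. Of the 115 miRNAs, 23 (20.0%) had all OCExoInhib samples below all vehicle samples and 30 (26.1%) had groups that did not overlap either way. The mean level was 5.94 ± 0.81 in the vehicle and −2.31 ± 3.92 in the OCExoInhib group (SD, n = 3 each). The log2 difference, OCExoInhib minus vehicle, was −8.25 (SE 1.38, 95% interval −11.19 to −5.31, limma adjusted p 0.000193), the lowest of the 115.

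The raw cycles of miR-107 carry most of the spread. Its Ct was 25.291, 25.298 and 24.352 in vehicle and 32.361, 36.996 and 28.148 in OCExoInhib samples. OCExoInhib 2 was the single value at Ct 35 or later of the 24 for the 4 miRNAs. Read as an instrument cycle it would rest on few template molecules, but the rule these values follow, described further on, leaves that reading untested. The Ct SD within the OCExoInhib group was 4.43 cycles, the highest of the 115 miRNAs, where the median was 0.870 and the next highest 2.62. In the vehicle group it was 0.544 and ranked 85 of 115 from the highest. The log2 difference was −6.22 without OCExoInhib 2 and −10.13 without OCExoInhib 3. It did not pass in the unmoderated test on the same values (adjusted p 0.112). Its limma adjusted p was 4.1e-13 at the lowest, with well P21 alone as the normalizer. In that fit all 4 miRNAs had the same SE of 1.05, so this p does not reflect the spread of miR-107 itself.

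miR-378 had log2 levels of 3.806, 5.326 and 4.944 in vehicle samples and of −1.700, −0.852 and 1.096 in OCExoInhib samples. The groups did not overlap, with a gap of 2.71, and OCExoInhib 3 was again the highest of its group. The mean level was 4.69 ± 0.79 in the vehicle and −0.49 ± 1.43 in the OCExoInhib group (SD, n = 3 each). The log2 difference was −5.18 (SE 0.87, 95% interval −7.03 to −3.33, limma adjusted p 0.000193), the 9th lowest of the 115. Its Ct was 27.187, 25.243 and 26.248 in vehicle and 32.050, 31.480 and 28.506 in OCExoInhib samples, so no value was late. It passed in all 21 alternatives that gave it a fit, with an adjusted p from 2.5e-06 to 0.0440. The lowest came with well P21 alone, where limma gave miR-378 the same SE of 1.05 as miR-107. The size was less steady, with log2 differences from −5.97 without OCExoInhib 3 to −2.65 with sample medians.

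miR-103 had log2 levels of 2.044, 4.289 and 5.448 in vehicle samples and of 3.968, 2.945 and 2.944 in OCExoInhib samples. The OCExoInhib values all lay within the vehicle range, in which sample 1 was low and sample 3 high. The mean was 3.93 ± 1.73 in the vehicle and 3.29 ± 0.59 in the OCExoInhib group (SD, n = 3 each). The log2 difference was −0.64 (SE 0.90, 95% interval −2.56 to 1.28, limma adjusted p 0.866). The interval runs from 0.170 to 2.42 times the vehicle level, so changes of either sign within it remain compatible with these values. The sign turned with 5 other normalizations and without vehicle 3, and the adjusted p ranged from 0.0585 to 0.995 over the alternatives.

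miR-33 was read in the earliest cycles of the 4. Its Ct was 23.291, 21.928 and 22.903 in vehicle and 22.959, 22.219 and 20.352 in OCExoInhib samples. The log2 level was 7.702, 8.641 and 8.289 in vehicle and 7.391, 8.409 and 9.250 in OCExoInhib samples, so the OCExoInhib group held both the lowest and the highest value. The mean was 8.21 ± 0.47 in the vehicle and 8.35 ± 0.93 in the OCExoInhib group (SD, n = 3 each). The log2 difference was 0.14 (SE 0.79, 95% interval −1.53 to 1.81, limma adjusted p 0.900). The interval runs from 0.346 to 3.51 times the vehicle level. miR-33 passed, upward, only when each sample was centred on its median (2.67, adjusted p 0.0152), a setting under which the median of all tested miRNAs shifted from −0.54 to 1.98. The sign turned with wells P21 or P22 alone and without vehicle 1 or OCExoInhib 3.

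**Figure D1:**
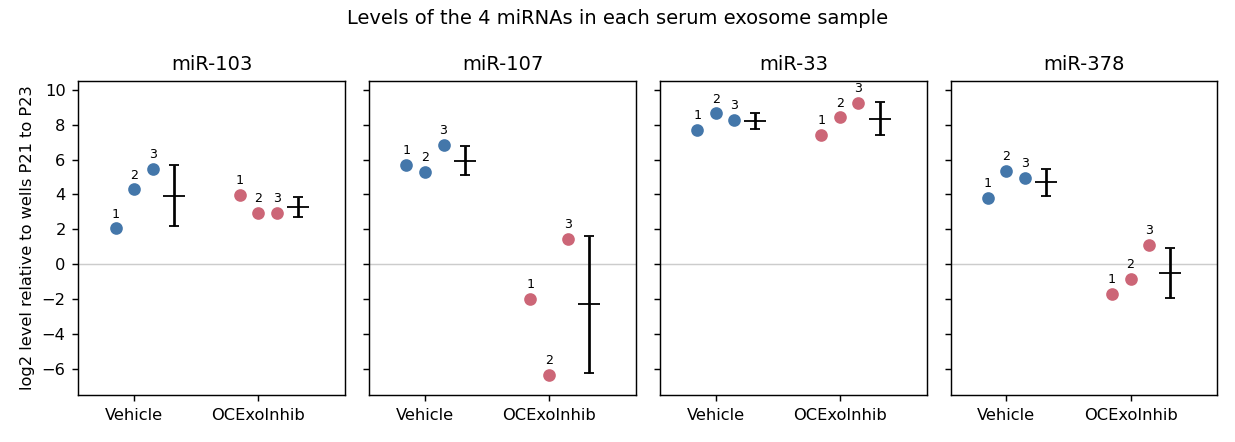
Log2 level relative to wells P21 to P23 (y axis) in each vehicle (blue) and OCExoInhib (red) sample of miR-103, miR-107, miR-33 and miR-378, with sample numbers above the points and the mean ± SD (n = 3) in black. For miR-107 and miR-378 every red point lies below every blue one, with the lowest at −6.368, while the groups overlap for miR-103 and miR-33.

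Differences in raw Ct between 2 miRNAs within a sample are computed without the normalizer wells, and a constant offset of each assay cancels between groups. Unequal amplification efficiency does not cancel and was not measured. The OCExoInhib levels of miR-107 and miR-378 are themselves tied to wells P21 to P23, as described further on, so pairs with these miRNAs are not shown to be free of the normalizer. The Ct of miR-107 minus that of miR-103 was −3.658, −0.982 and −1.392 cycles in vehicle and 5.979, 9.313 and 1.490 cycles in OCExoInhib samples. miR-107 thus crossed the threshold before miR-103 in each vehicle sample and after it in each OCExoInhib sample. The mean moved from −2.01 ± 1.44 to 5.59 ± 3.93 cycles (SD, n = 3 each), a difference of 7.60 (exact two-sided permutation p 0.1, the smallest this design can give, adjusted 0.15 over the 6 pairs). It ranged from 5.75 to 9.66 with a sample left out and was 6.94 with the late value set to Ct 35.

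The Ct of miR-378 minus that of miR-33 was the steadiest of the pair differences, at 3.896, 3.315 and 3.345 cycles in vehicle and 9.091, 9.261 and 8.154 cycles in OCExoInhib samples. The shift of 5.32 cycles exceeded the SDs of 0.327 and 0.596 (exact p 0.1, adjusted 0.15). The other shifts without overlap were 4.54 cycles for miR-378 minus miR-103 and 8.39 for miR-107 minus miR-33 (exact p 0.1, adjusted 0.15 each). For miR-107 minus miR-378 the groups overlapped, with a shift of 3.07 cycles (exact p 0.2, adjusted 0.24). The vehicle values of that pair were −1.896, 0.055 and −1.896, equal in samples 1 and 3. For miR-103 minus miR-33 they overlapped with a shift of 0.781 cycles (exact p 0.6, adjusted 0.6).

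**Figure D2:**
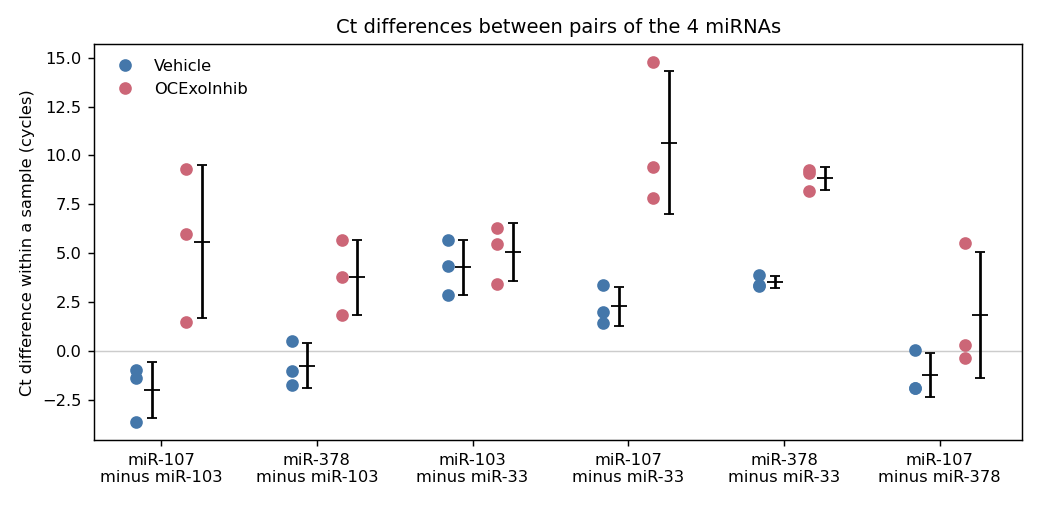
Within-sample Ct differences in cycles (y axis) for the 6 pairs among the 4 miRNAs, in vehicle (blue) and OCExoInhib (red) samples with the mean ± SD (n = 3) in black. The pairs that set miR-107 or miR-378 against miR-103 or miR-33 separate without overlap, by 4.54 to 8.39 cycles in the means.

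The OCExoInhib values of miR-107 and miR-378 followed an exact rule that those of miR-103 and miR-33 did not. On a linear scale, as 2 to the power of the negative ΔCt, the level of miR-107 was 52.1, 38.6 and 114.6 times that of the wells in vehicle samples and 0.248, 0.0121 and 2.74 times in OCExoInhib samples. The arithmetic mean of the latter is 1.0000. For miR-378 the linear levels were 14.0, 40.1 and 30.8 in vehicle and 0.308, 0.554 and 2.14 in OCExoInhib samples, whose mean is 0.9998. For miR-103 and miR-33 the OCExoInhib means were 10.3 and 372.2.

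The same held across the panel. All 20 miRNAs that fell had an OCExoInhib mean between 0.9998 and 1.0002, within 0.0005 of 1, against 0 of the other 95 tested miRNAs. The nearest mean among those was 1.054, for miR-501-5p. None of the 115 vehicle means lay within 0.0005 of 1, and the nearest was 0.981, for miR-199a-5p. A mean of 1 ties each OCExoInhib value to the other two, so the values of miR-107 in that group do not vary freely, as limma's test takes them to. The Ct values, levels and folds of the miRNAs that fell carry the same reservation. The cause was not tested.

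**Figure D3:**
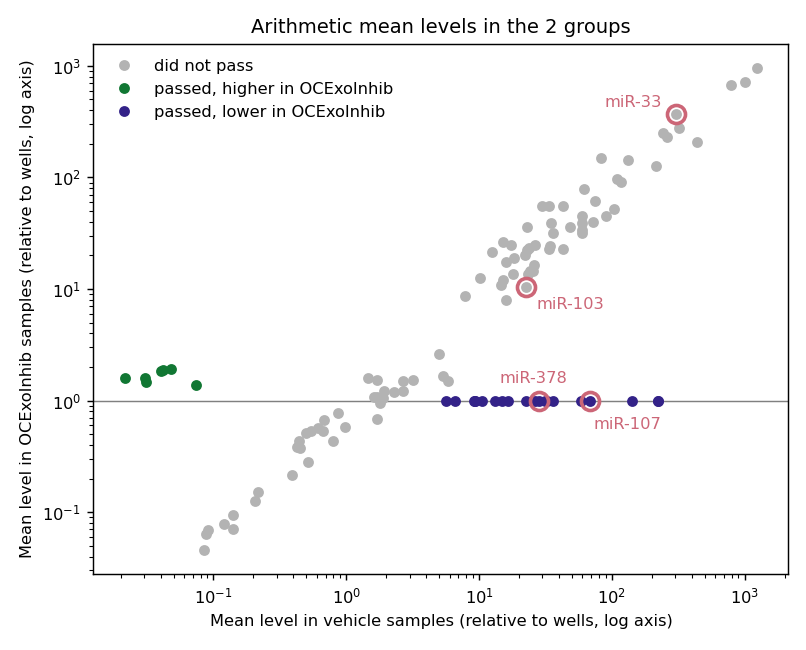
Arithmetic mean level in OCExoInhib samples (y axis, log scale) against that in vehicle samples (x axis, log scale), relative to wells P21 to P23, for the 115 tested miRNAs, coloured by whether they passed. The 20 that fell, miR-107 and miR-378 among them (red rings), lie on the line at 1, while miR-103 and miR-33 lie in the diagonal band of miRNAs that did not pass.

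The scale of the mean also changed the size of the fall. The ratio of the linear means, a setting added after the data were seen, was 68.4-fold for miR-107 (log2 −6.10) in place of 303.6-fold and 28.3-fold for miR-378 (log2 −4.82). By that ratio miR-103 was 2.17-fold lower in place of 1.56-fold, with no test. The authors' deposited table lists vehicle over OCExoInhib folds of 303.594 for miR-107, 36.185 for miR-378, 1.56 for miR-103 and 0.908 for miR-33. These folds correspond to the mean ΔCt.

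A further regularity involved the raw cycles of the same miRNAs. The Ct of vehicle 1 minus that of vehicle 3 was 0.939 cycles for both miR-107 and miR-378, and 17 tested miRNAs had this difference within 0.0015, all of which passed. The Ct of OCExoInhib 1 minus that of OCExoInhib 2 was 0.570 cycles for miR-378, shared by 10 miRNAs, and −4.635 for miR-107, shared with no other. For miR-103 and miR-33 each of the differences between samples of a group was found in that miRNA alone. Of the 115 miRNAs, 23 (20.0%) carried at least 1 difference shared by 5 or more, and 22 of them passed. With vehicle samples 1 and 3 averaged to 1 sample, the log2 differences were −8.08 for miR-107 (adjusted p 0.00863) and −5.34 for miR-378 (adjusted p 0.00229).

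The miRNAs closest to each of the 4 over the 6 samples were ranked by the root mean square (RMS) difference in log2 level, after centring each miRNA on its own mean. That centring keeps the difference between groups, so neighbours of a miRNA with a large fall have fallen largely by construction. For miR-378 they were miR-194 (RMS 0.365), let-7e (0.659) and miR-16 (0.811), all of which fell, where the median over all tested miRNAs was 2.69. For miR-107 they were miR-652 (1.78), miR-30d (2.01) and miR-194 (2.30), which also fell, against a median of 4.63. All of these neighbours of miR-378 and miR-107 carried a shared Ct difference. For miR-103 they were miR-497 (0.196), miR-92a (0.307) and miR-206 (0.374), against a median of 1.37. None of these passed. For miR-33 they were miR-489 (0.376), miR-210 (0.711) and miR-15b (0.720), against a median of 1.25, and none passed. miR-497 and miR-15b belong to the group described next. The low vehicle 1 and high vehicle 3 of miR-103 were seen in miR-497 and equally in miR-92a and miR-206, which are outside that group.

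The wider miR-15 and miR-107 group shares the AGCAGC run printed in the sequences of miR-103, miR-107, miR-15a and miR-16. Apart from miR-103 and miR-107, 7 of its 9 listed members were on the panel, 5 had a Ct and were tested, 2 fell, 0 rose and 3 did not pass, where 17.4% of all 115 were lower and 6.09% higher. Those that fell were miR-16 (log2 difference −5.41, SE 0.88), which restrains cell cycle genes, and miR-15a (−4.70, SE 0.95). Log2 levels of miR-16 were 3.912, 6.985 and 5.049 in vehicle and −0.862, 0.310 and 0.276 in OCExoInhib samples. Both carried a shared Ct difference and had an OCExoInhib mean of 1. The call of miR-15a was lost with quantile normalization and in the unmoderated test. The values of miR-15b (−0.23), miR-497 (−0.82) and miR-503 (−0.10) did not pass, and the median of the 5 was −0.82 beside −0.54 for all tested miRNAs. The miR-16 sequence is encoded at 2 loci, Mir16-1 near Mir15a on chr14 and Mir16-2 near Mir15b on chr3. Of these neighbours miR-15a fell and miR-15b did not pass. miR-15a, miR-15b, miR-16 and miR-497 share a seed, and of these miR-15a and miR-16 fell while miR-15b and miR-497 did not pass. Of miR-103 and miR-107, which share another seed, only miR-107 passed. For miR-107 and miR-103 the shift in Ct difference is the 7.60 cycles given earlier, and among the miRNAs of the other seed it was not tested.

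**Figure D4:**
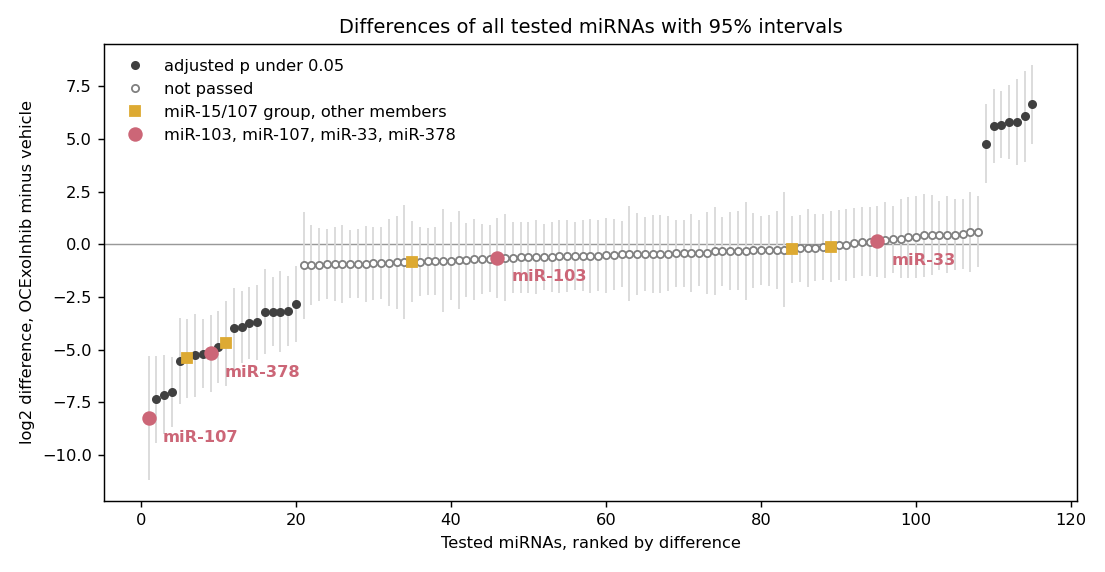
Log2 difference (OCExoInhib minus vehicle, y axis) of the 115 tested miRNAs in rank order (x axis) with 95% intervals from limma, filled where the adjusted p was under 0.05. miR-107 is lowest at −8.25 and miR-378 the 9th at −5.18, miR-103 and miR-33 lie on the plateau of miRNAs that did not pass, and the other 5 tested members of the miR-15 and miR-107 group (yellow) fall in both places.

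Other miRNAs reported to regulate lipid or glucose metabolism were measured in part. Of 29 listed, 28 were on the panel, 12 of these had no Ct in any sample, among them liver miR-122 and islet miR-375, 2 had mostly late values and 14 were tested. Of these 1 fell, 2 rose and 11 did not pass, where 17.4% of all 115 were lower and 6.09% higher. Whether these shares differ was not tested. The median was −0.62 beside −0.54 for all. miR-148a, a regulator of the low-density lipoprotein receptor, fell (−7.14, SE 0.89). miR-29c, of a family that targets collagens, rose (5.68, SE 0.75), as did miR-34a, a p53-induced miRNA that targets Sirt1 (6.07, SE 1.01). All 3 carried a shared Ct difference. Among the 11, values ran from −0.97 for miR-29a to −0.03 for miR-128. miR-27a (−0.44) and miR-144 (−0.56) were also among them. The miR-34a call was lost in the unmoderated test. Both rises were lost with a Ct under 35 required in every sample, since both had late vehicle values. Every vehicle value of miR-29c and most of those of miR-34a were at Ct 35 or later. Both thus met the filter for testing only through the OCExoInhib samples, where they were high, so their rises are not independent of that filter.

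Markers of cells that add RNA to serum were checked beside these falls. Of 19 markers of red cells, platelets, liver, muscle, endothelium and leukocytes, all on the panel, 9 had a Ct. The 10 without one included the defining miR-451, miR-122, miR-126-3p, miR-142-3p and miR-1. Of 8 tested, 4 fell (miR-16, miR-21, miR-194 and miR-133a), 0 rose and 4 did not pass, with a median of −1.69 beside −0.54 for all 115, of which 17.4% were lower and 6.09% higher. All 4 that fell carried a shared Ct difference and had an OCExoInhib mean of 1, and the 4 that did not pass carried none. The platelet marker miR-223 had a Ct but mostly late values and was not tested. By list, the falls and tested members were 1 of 2 for red cells, 1 of 1 for platelets, 1 of 2 for liver and 1 of 2 for muscle. They were 0 of 1 for leukocytes, and no endothelial marker was tested. The summed level of the 9 ranged from 94.8 to 404.4 times the wells in vehicle and from 49.4 to 121.7 in OCExoInhib samples. Their part in the falls of miR-107 and miR-378 was not tested.

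The normalizer set how miR-103 and miR-33 read but not the sign of the other two. Wells P21 to P23, taken as the spike-in control from the arithmetic of the tables, averaged Ct 30.9 ± 0.318 in the vehicle group and Ct 30.2 ± 0.531 in the OCExoInhib group (SD, n = 3 each), which is −0.725 cycles apart (exact two-sided permutation p 0.2). Against well P23 alone, which differed by 0.035 cycles, the log2 differences were −7.49 for miR-107, −4.42 for miR-378, 0.12 for miR-103 and 0.90 for miR-33. Against well P22 alone, which differed by −1.20 cycles, they were −8.73, −5.66, −1.12 and −0.34 in the same order. miR-107 ranged from −10.13 to −5.72 over all fits, and neither it nor miR-378 changed sign. The OCExoInhib values of these 2 are tied to wells P21 to P23, as described earlier, so an unchanged sign cannot vouch for their falls.

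**Figure D5:**
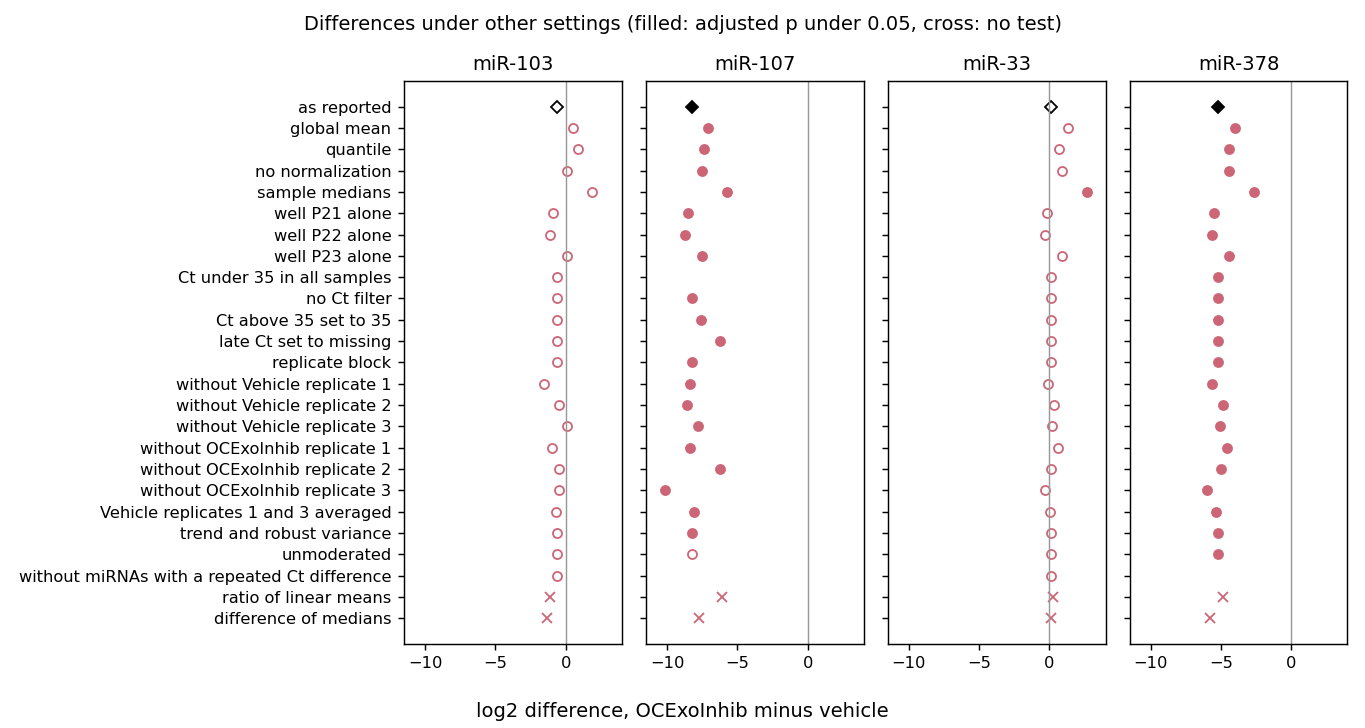
Log2 difference (OCExoInhib minus vehicle, x axis) of each of the 4 miRNAs under each setting (rows), filled where the adjusted p was under 0.05 and a cross where there is no test. miR-107 and miR-378 stay below 0 in every row that gives a value, miR-103 and miR-33 scatter about 0, and miR-33 passes in 1 row, at 2.67.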

How the data were processed

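Per the labels' protocols, exosomal RNA was column-purified, reverse transcribed and profiled by SYBR Green qPCR for 40 cycles on a ViiA7 instrument. The authors deposited raw Ct values, log2-scale normalized values (ΔCt, per the file headers relative to a spike-in) and a ratio of vehicle over OCExoInhib. The threshold setting and the names of the control wells are not stated in those sources. Every deposited ΔCt is reproduced by subtracting the average Ct of wells P21 to P23 from the raw Ct. Of 384 wells, 123 named miRNAs had a Ct in all samples, and the tables held 0 further columns of per-sample values.

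The negative ΔCt was tested with limma 3.58.1 in R 4.3.3 (two-sided, Benjamini-Hochberg, threshold 0.05). The test covered the 115 miRNAs with Ct under 35 in at least 3 of 6 samples. It was also run on simulated data with independent noise. Those data lack the tied values and shared Ct differences described earlier, so that run cannot vouch for the calls of miR-107 and miR-378. Pairs of miRNAs were compared by exact permutation in scipy 1.17.1. The number of samples limits the precision. Names beyond the 4 follow a rule: passing members of the metabolic and miR-15 and miR-107 lists and the 3 nearest miRNAs. Other names were picked with their values in view. The members, lists and settings were chosen with earlier results of these data known. Mature and hairpin sequences and positions come from RefSeq on GRCm38.p6.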

Additional observations from a re-analysis of the deposited data

How the results depend on the processing

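With 3 samples a group only large differences could be called. The size of the miR-107 fall moved without OCExoInhib 2, which held its late cycle (−6.22), and also without OCExoInhib 3 (−10.13). The ratio of linear means and the difference of medians were chosen after seeing the data. Under sample medians miR-103 was at 1.88, under quantile normalization at 0.90, under the global mean at 0.54 and without normalization at 0.083, all of opposite sign, as were 0.12 with well P23 alone and 0.12 without vehicle 3. miR-33 turned to −0.14 with well P21 alone, −0.34 with well P22 alone, −0.12 without vehicle 1 and −0.31 without OCExoInhib 3, and passed at 2.67 with sample medians. miR-107 stayed at −8.25 in the unmoderated test but did not pass. It had no value with a Ct under 35 in all samples, and miR-107 and miR-378 had none without miRNAs that carry a repeated Ct difference, since both settings remove them.

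Leaving out each sample gave log2 differences of −1.58 to 0.12 for miR-103, −10.13 to −6.22 for miR-107, −0.31 to 0.62 for miR-33 and −5.97 to −4.57 for miR-378. Pair differences ranged from 5.75 to 9.66 cycles (miR-107 and miR-103), 3.59 to 5.50 (miR-378 and miR-103), 0.059 to 1.60 (miR-103 and miR-33), 6.33 to 9.82 (miR-107 and miR-33), 5.10 to 5.66 (miR-378 and miR-33) and 1.22 to 4.16 (miR-107 and miR-378). There were 24 to 27 called miRNAs, 17 to 20 lower and 7 to 7 higher. The lists held 1 to 1 lower and 2 to 2 higher metabolic miRNAs, and 2 to 2 lower and 0 to 0 higher members of the miR-15 and miR-107 group.

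Counts moved by over 1.5 times as follows. Quantile normalization called 16 miRNAs, 9 lower, with 1 lower in the miR-15 and miR-107 group. Sample medians called 68, 11 lower and 57 higher, with 5 metabolic miRNAs and 2 of the miR-15 and miR-107 group higher. The unmoderated test called 15, 11 lower and 4 higher, with 1 metabolic miRNA higher and 1 of the miR-15 and miR-107 group lower. Once carriers of a repeated Ct difference were removed, 5 passed, 1 lower and 4 higher. Requiring Ct under 35 everywhere left 0 higher in all and 0 in the metabolic list, and late values set to missing left 3 and 1. Apart from settings that remove miRNAs, the cause was not tested.

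Deviations from the group means of samples with the same number had correlations of 0.0587, 0.0177 and 0.117. The numbers therefore were not read as a pairing, and 3 of 6 samples correlated best with their own number. With the sample number as a replicate block, miR-107 (−8.25, adjusted p 0.0251) and miR-378 (−5.18, adjusted p 0.0145) still passed, miR-103 (−0.64) and miR-33 (0.14) did not, and 25 miRNAs were called, 18 lower and 7 higher.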
